A study of Mus musculus and Ictidomys tridecemlineatus with 36 samples.

Results

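The genes described here are 6 regulators of the rod photoreceptor fate, Nrl, Nr2e3, Samd7, Samd11, Esrrb and Mef2d. They were chosen by name, by a rule that uses no measured value but with earlier results of these data known, and are 6 of the 21938 protein-coding genes of the GENCODE M21 annotation of the mouse genome build GRCm38. Their CUT&RUN peaks were then collected by position from 5 lists of newborn mouse retina. A peak was a promoter peak of a gene when it came within 1 kb of any transcription start site (TSS) of that gene, and belonged to its window when it overlapped the gene body plus 20 kb on either side. Together the 6 windows held 118 of the 246656 peaks of the 5 lists, made up of 14 H3K4me3, 19 H3K27ac, 50 H3K4me1, 23 Otx2 and 12 Neurod1 peaks.

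A newly postmitotic photoreceptor precursor, which expresses the homeodomain factors Otx2 and Crx, can become a rod or a cone. Nrl, a leucine zipper factor of the Maf family, directs it to the rod fate, and photoreceptors without Nrl develop as cones. Nrl acts in part through the orphan nuclear receptor Nr2e3, which represses cone genes and helps to activate rod genes. Samd7 and Samd11 are sterile alpha motif proteins that join polycomb complexes in photoreceptors and keep inappropriate genes silent. Esrrb is an orphan nuclear receptor needed for rod survival, and Mef2d is a MADS box factor that acts with Crx at photoreceptor genes. Of the 5 targets profiled, H3K4me3 marks promoters, H3K27ac marks active promoters and enhancers, and H3K4me1 is broadest around enhancers. Otx2 and Neurod1, a basic helix-loop-helix factor of the photoreceptor lineage, are themselves bound to DNA.

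The study profiled retinas of mice at postnatal day 2 (P2) and, for comparison, of the 13-lined ground squirrel, a species rich in cones, at postnatal day 5, whose lists were not used here. In CUT&RUN, a nuclease tethered to an antibody cuts out the DNA around its target. The mouse retina was untreated, and each of 2 biological replicates pooled the retinas of 3 animals, with 385000 nuclei per reaction. There were 2 libraries each for H3K4me3, H3K27ac, H3K4me1 and the IgG control, 4 for Neurod1, and 8 for Otx2, for which 2 antibodies were used. The labels give no strain, sex or genotype. All libraries of a target were called together against IgG, so that every peak has a single value, its fold enrichment over IgG, with no spread between replicates. None of the differences below could therefore be tested, the depth of the libraries is unknown from the lists, and the values describe these pooled libraries. In whole retina, fewer cells with a mark and less of it per cell cannot be told apart, nor can a peak be assigned to rods.

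The lists carried the marks of neural retina. All 8 neural retina genes examined had an H3K4me3 promoter peak, with a median of 66.2-fold, and all 8 had H3K27ac. None of the 3 lens, 3 blood and microglia, 2 muscle or 2 liver genes had an H3K4me3 peak, while 2 of 4 pigment epithelium genes, Pmel and Rlbp1, did. The pigment epithelium genes Rpe65 and Tyr had no promoter peak of any of the 5 targets. The lists differed in size, from 4744 Neurod1 peaks to 135798 H3K4me1 peaks, so that counts are comparable within a target and not between targets.

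The DNA under the Otx2 and Neurod1 peaks that the description turns on is shown first. Each summit stretch is the 300 bases around the highest point of a peak, read from GRCm38. Each promoter is the longest part of the RefSeq promoter (GRCm38.p6) free of annotated bases of untranslated regions (UTRs). The Samd11 promoter stretch lies downstream of another annotated start of that gene, at position 156255657. All are written 5′ to 3′ on the strand of the gene, with capitals for the letters TAATCC, the core recognised by Otx2 and Crx, and for the E-boxes CAGATG and CAGCTG recognised by basic helix-loop-helix factors, each in either orientation (GGATTA and CATCTG being the reverse complements of the first pair). No match overlapped another. The pair from Nrl shows its strongest Otx2 peak, upstream of the gene, and the site inside the gene that both factors share:
Nrl upstream, chr14:55526815-55527114, minus strand: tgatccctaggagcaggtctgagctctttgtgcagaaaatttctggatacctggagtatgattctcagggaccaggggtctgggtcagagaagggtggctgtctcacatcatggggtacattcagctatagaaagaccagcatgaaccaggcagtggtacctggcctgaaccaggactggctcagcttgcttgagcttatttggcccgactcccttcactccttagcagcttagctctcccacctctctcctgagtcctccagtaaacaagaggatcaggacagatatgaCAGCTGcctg
Nrl shared site, chr14:55521080-55521379, minus strand: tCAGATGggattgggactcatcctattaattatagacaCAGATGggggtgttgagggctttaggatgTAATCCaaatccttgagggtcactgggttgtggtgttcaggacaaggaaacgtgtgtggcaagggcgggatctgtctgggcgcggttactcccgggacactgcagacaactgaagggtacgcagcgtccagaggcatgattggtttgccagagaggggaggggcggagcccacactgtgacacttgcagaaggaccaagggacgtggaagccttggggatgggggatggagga
The pair from Nr2e3 shows the shared site upstream of the coding start and the Otx2 site that lay on no histone peak:
Nr2e3 shared site, chr9:59951125-59951424, minus strand: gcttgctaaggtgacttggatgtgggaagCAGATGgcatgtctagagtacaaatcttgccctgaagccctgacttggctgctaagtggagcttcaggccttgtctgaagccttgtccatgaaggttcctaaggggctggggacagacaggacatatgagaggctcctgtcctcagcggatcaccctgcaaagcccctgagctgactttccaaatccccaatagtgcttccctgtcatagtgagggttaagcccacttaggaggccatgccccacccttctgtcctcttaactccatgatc
Nr2e3 distal Otx2 site, chr9:59959302-59959601, minus strand: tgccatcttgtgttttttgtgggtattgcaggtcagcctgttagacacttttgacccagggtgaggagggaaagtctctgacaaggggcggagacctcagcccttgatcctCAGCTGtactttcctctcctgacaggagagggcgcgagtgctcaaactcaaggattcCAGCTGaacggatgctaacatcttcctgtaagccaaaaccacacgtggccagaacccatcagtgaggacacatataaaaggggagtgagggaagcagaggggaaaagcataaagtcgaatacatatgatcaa
The promoters of Samd7 and Samd11, both under Otx2 peaks, are the only ones of the 6 genes in the RefSeq table that hold TAATCC:
Samd7 promoter, chr3:30746043-30746292, plus strand: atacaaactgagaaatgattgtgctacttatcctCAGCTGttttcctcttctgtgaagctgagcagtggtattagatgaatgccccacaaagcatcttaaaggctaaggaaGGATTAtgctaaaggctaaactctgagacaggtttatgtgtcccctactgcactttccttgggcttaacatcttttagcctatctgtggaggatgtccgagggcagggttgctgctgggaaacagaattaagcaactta
Samd11 promoter, chr4:156255339-156255567, minus strand: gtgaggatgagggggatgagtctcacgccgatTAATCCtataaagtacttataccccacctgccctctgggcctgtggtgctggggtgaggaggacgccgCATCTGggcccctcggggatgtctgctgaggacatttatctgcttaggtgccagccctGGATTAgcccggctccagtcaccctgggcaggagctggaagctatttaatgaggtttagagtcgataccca
From Mef2d come the strongest Otx2 peak of the 6 genes, at the promoter and without any of these letters, and the strongest Neurod1 peak, in an intron:
Mef2d promoter Otx2 site, chr3:88141982-88142281, plus strand: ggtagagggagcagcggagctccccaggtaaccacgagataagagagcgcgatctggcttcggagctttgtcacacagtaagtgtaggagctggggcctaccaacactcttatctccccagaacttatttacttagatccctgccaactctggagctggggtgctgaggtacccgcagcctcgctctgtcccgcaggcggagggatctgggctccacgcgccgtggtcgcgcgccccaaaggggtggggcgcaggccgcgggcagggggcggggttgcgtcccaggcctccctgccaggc
Mef2d intronic Neurod1 site, chr3:88145227-88145526, plus strand: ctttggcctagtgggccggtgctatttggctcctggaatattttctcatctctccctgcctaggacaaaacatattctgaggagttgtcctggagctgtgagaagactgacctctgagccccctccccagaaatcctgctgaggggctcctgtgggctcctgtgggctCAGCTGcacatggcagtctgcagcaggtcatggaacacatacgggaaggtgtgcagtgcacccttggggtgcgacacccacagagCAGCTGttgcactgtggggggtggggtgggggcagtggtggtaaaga
Esrrb is represented by a weak intronic Otx2 peak with the letters TAATCC in 2 places:
Esrrb intronic Otx2 site, chr12:86431628-86431927, plus strand: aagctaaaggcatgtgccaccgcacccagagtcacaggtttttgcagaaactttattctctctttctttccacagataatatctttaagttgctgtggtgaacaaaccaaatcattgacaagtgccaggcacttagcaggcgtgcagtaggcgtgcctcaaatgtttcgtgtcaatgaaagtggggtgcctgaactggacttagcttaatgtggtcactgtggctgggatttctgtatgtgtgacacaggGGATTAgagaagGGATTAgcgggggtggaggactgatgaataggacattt

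At their promoters the 6 genes fell into 3 patterns. Nrl, Nr2e3 and Mef2d had promoter peaks of all 5 targets, a combination held by 3.18% of all protein-coding genes. Samd7 and Samd11 had H3K4me3, H3K4me1 and Otx2 without H3K27ac or Neurod1, as did 24.1% of genes. Esrrb had H3K4me1 alone, as did 8.75% of genes.

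Counted by target, 5 of the 6 genes had an H3K4me3 promoter peak (56.0% of all genes), 3 had H3K27ac (22.6%), 6 had H3K4me1 (63.6%), 5 had Otx2 (51.0%) and 3 had Neurod1 (5.76%). These shares are of all genes, with or without H3K4me3. Among genes with an H3K4me3 promoter peak, to which all but Esrrb belong, Otx2 was present at 86.4% and H3K4me1 at 91.9%, so that the 5 of 5 seen for each here is close to the background. H3K27ac was present at 37.1% of such genes and at 3 of these 5. Neurod1 was present at 9.46% and again at 3 of these 5. The Neurod1 count thus stood furthest from its background, on a base of 3 genes and with no test. Only Nrl kept all 5 targets under each stricter definition of a promoter peak. It was the only one of the 6 genes with all 5 where the summit had to lie within 1 kb (2.34% of all genes) or a peak within 500 bp (2.41%), was joined by Mef2d where the TSSs of coding transcripts alone were used (2.57%), and by Nr2e3 among peaks with a −log10 q-value of at least 5 (1.45%). With summits within 1 kb, H3K27ac was left at Nrl alone (21.3% of all genes) and Neurod1 at Nrl and Mef2d (5.47%), and within 500 bp Neurod1 was also at these 2 genes (5.13%).

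Around the distance limit of 1 kb, the promoter peaks with the most distant near edge were H3K27ac at Mef2d (2.92-fold, edge 928 bp from the nearest TSS) and H3K4me1 at Samd11 (4.93-fold, 920 bp). Just outside it lay H3K4me1 at Nrl (6.44-fold, 1188 bp) and the upstream Otx2 peak of Nrl (6.59-fold, 1218 bp). The genes have between 4 and 9 annotated start positions, against a median of 3 for all genes, which widens their promoter windows.

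**Figure D1:**
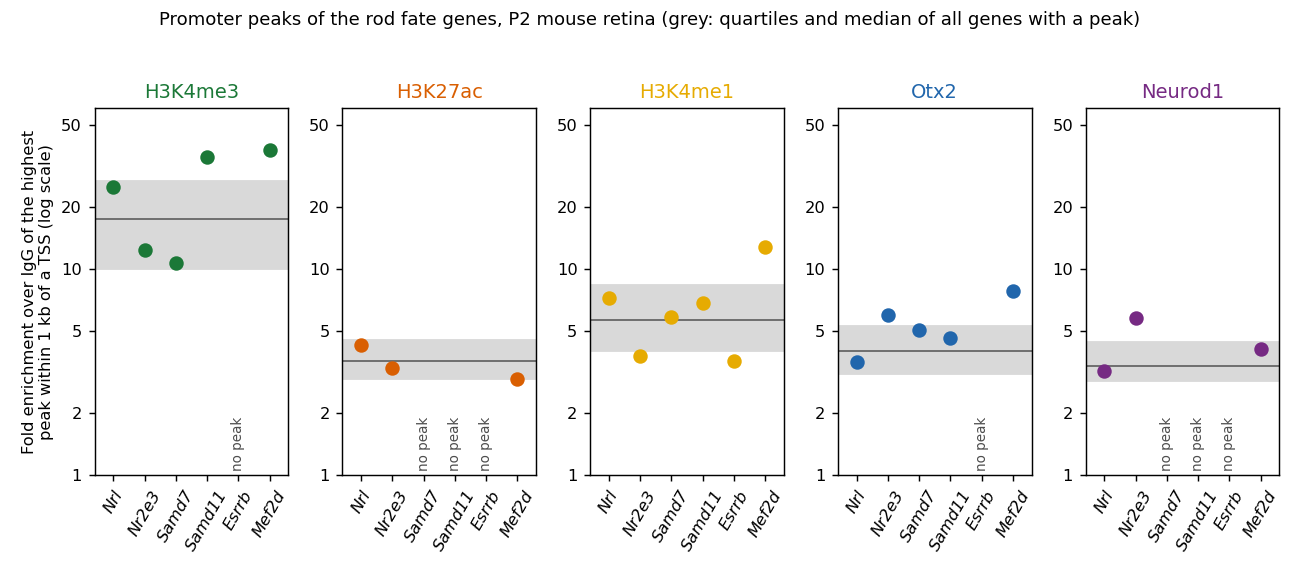
Fold enrichment over IgG (log axis) of the highest peak within 1 kb of a TSS of each gene, 1 panel per target, with the quartiles (grey band) and median (grey line) of all protein-coding genes that have such a peak. Mef2d and Samd11 have the highest H3K4me3 of the 6 genes, at 37.5 and 35.0-fold, and Esrrb has an H3K4me1 peak only.

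The height of the peaks did not follow a single order over the 5 targets. H3K4me3 was highest at Mef2d (37.5-fold) and Samd11 (35.0-fold), followed by Nrl (24.9-fold), Nr2e3 (12.3-fold) and Samd7 (10.7-fold), beside a median of 17.5-fold over all genes with such a peak. Nr2e3 and Samd7 were thus below that median and the other three above it. Otx2 ran from 7.86-fold at Mef2d through 5.97 at Nr2e3, 5.03 at Samd7 and 4.63 at Samd11 to 3.52 at Nrl, beside a median of 3.99. Nrl, the gene at the head of the rod programme, had the lowest Otx2 value at its promoter among the 5 genes with one, but its peak of 6.59-fold just outside the 1 kb limit was higher. The Nr2e3 value comes from a peak near its noncoding starts, and the peak nearest the coding start was 5.15-fold. H3K27ac was 4.28-fold at Nrl, 3.33-fold at Nr2e3 and 2.92-fold at Mef2d, beside a median of 3.58. Mef2d therefore combined the highest promoter H3K4me3 of the 6 genes with the lowest promoter H3K27ac of the 3 that had any. Its H3K27ac value came from a peak with its summit 1567 bp from the nearest TSS. A higher H3K27ac peak of 4.06-fold, outside the 1 kb limit, overlapped the same H3K4me3 peak. Neurod1 was 5.80-fold at Nr2e3, 4.08-fold at Mef2d and 3.19-fold at Nrl, beside a median of 3.38. H3K4me1 ranged from 3.59-fold at Esrrb to 12.8-fold at Mef2d, beside a median of 5.64, but the order depends on how a promoter peak is defined. The Mef2d value is the summit of a domain of 9408 bp, 7172 bp from the nearest TSS, and its H3K4me1 peak with a summit within 1 kb was 3.18-fold, below Esrrb. At Samd7 as well, the highest peak (5.86-fold) had its summit further off, and the highest with a summit within 1 kb was 3.70-fold. How far these neighbours in order differ beyond replicate spread is not known.

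**Figure D2:**
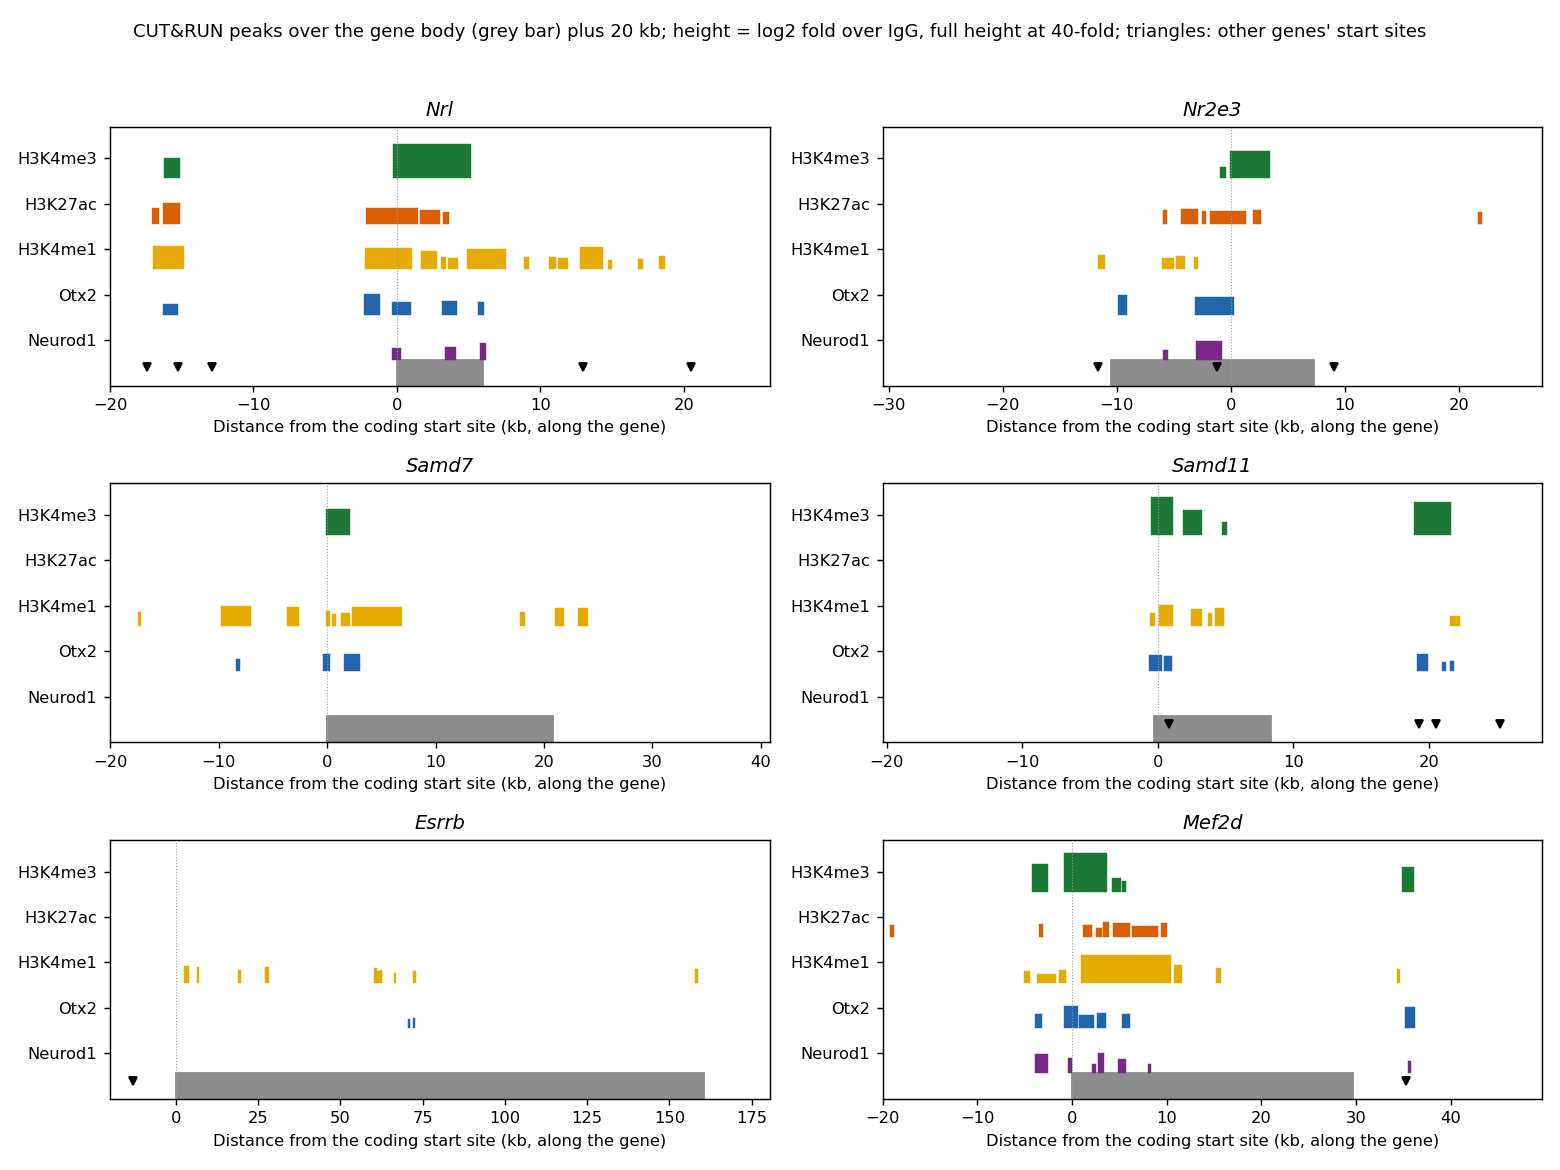
Peaks of the 5 targets over each gene body (grey bar) plus 20 kb on either side, by distance in kb from the coding start site along the gene. The height of a block is the log2 fold enrichment over IgG, and triangles mark start sites of other genes. The Neurod1 and H3K27ac tracks of Samd7, Samd11 and Esrrb are empty, and Mef2d has 7 Neurod1 peaks.

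Nrl (ENSMUSG00000040632, chr14:55518978-55524981, minus strand) is a short gene of 6004 bp. A single H3K4me3 peak of 5376 bp covered most of it, at 24.9-fold, a height reached by 29.3% of genes with a promoter peak. H3K27ac (4.28-fold) formed a block of 3554 bp over the first exon and the upstream DNA, with smaller peaks of 3.57 and 2.86-fold inside the gene. The other two H3K27ac peaks of the window lay at Pck2 and the antisense gene Gm10876, and one of them, at 6.81-fold, was the highest of the window, a height reached by 3.11% of all H3K27ac peaks, while the other was 4.01-fold. H3K4me1 was dense, with 13 peaks in the window or 28.3 per 100 kb, a density reached by 0.397% of all genes. The count was 9 with peaks within 500 bp merged. It was 5 in the gene body alone, and also 5 at a −log10 q-value of at least 5. Of those 13 peaks, 7 overlapped neither H3K4me3 nor H3K27ac, and these 7 lay downstream, in or near Carmil3 and Cpne6. The highest H3K4me1 peak (9.04-fold) lay at Pck2 and Gm10876 as well.

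Otx2 was found at 5 places around Nrl. The strongest peak (6.59-fold, a height reached by 10.1% of all Otx2 peaks) had its summit 1984 bp upstream of the coding start, on H3K27ac and H3K4me1 but beyond the edge of the H3K4me3 peak. The others were 3.14-fold at the coding start, 3.52-fold inside the gene near an annotated noncoding start, 3.10-fold at the 3′ UTR and 2.52-fold at Pck2. Neurod1 was found at 3 of these 5 places, at the coding start (3.03-fold), inside the gene (3.19-fold) and at the 3′ end (4.59-fold), and was not called at the upstream Otx2 peak. The strongest Otx2 site and the strongest Neurod1 site of Nrl thus lay at opposite ends of the gene. Paired summits were 58, 47 and 44 bp apart. The 3 Neurod1 peaks made 6.52 per 100 kb, reached by 0.442% of genes.

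The printed stretches differ in their letters. The site inside Nrl holds 1 TAATCC and 2 CAGATG within 150 bp of the Neurod1 summit. The upstream stretch, under the stronger Otx2 peak, holds 1 CAGCTG and no TAATCC.

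Nr2e3 (ENSMUSG00000032292, chr9:59942771-59960659, minus strand) has a coding start at position 59950117 and noncoding transcripts that start further upstream, at 59960655 and 59960659. Its H3K4me3 peak (12.3-fold, 3490 bp) ran from the coding start into the gene, with a small one (2.63-fold) upstream of it. H3K27ac was spread over 6 peaks of 2.86 to 3.88-fold, and 4 of these lay off H3K4me3. The only promoter H3K4me1 peak (3.77-fold) lay by the noncoding starts and was not among the promoter peaks when coding transcripts alone were counted. It also lay at the start of another gene, Gm15507, which is 11654 bp upstream of the coding start. The place of Nr2e3 among the genes with promoter peaks of every target rests on this H3K4me1 peak.

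One broad Otx2 peak (5.15-fold, 3375 bp) and one broad Neurod1 peak (5.80-fold, 2253 bp) overlapped upstream of the Nr2e3 coding start. They shared 2253 bp, and their summits lay 1234 and 1158 bp upstream, 76 bp apart and on H3K27ac. The Neurod1 peak was the highest at any of the 6 promoters, a height reached by 12.4% of genes with a Neurod1 promoter peak. The antisense gene Gm7616 starts 1168 bp upstream of the coding start, between these summits, so the site lies at the start of that gene as well. A single CAGATG lay within 150 bp of either summit, and no TAATCC.

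A second Otx2 peak of Nr2e3 (5.97-fold) had its summit 9335 bp upstream of the coding start, inside the long noncoding transcripts, and overlapped no histone peak. It is labelled distal above for its distance from the coding start, but counted as a promoter peak because it came within 1 kb of the noncoding starts. Only 7.20% of all Otx2 peaks overlapped none of the 3 histone marks. Its stretch holds 2 CAGCTG. A weaker Neurod1 peak (2.52-fold), 5699 bp upstream, lay on H3K27ac and H3K4me1 without Otx2.

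Samd7 (ENSMUSG00000051860, chr3:30746293-30767174, plus strand) has no other annotated start in its window, and none of its peaks lay within 1 kb of another gene's start. Whether a peak serves a gene further off was not tested. H3K4me3 formed a single peak (10.7-fold, 2081 bp) from the start into the first intron. No H3K27ac or Neurod1 peak lay in the window of 60882 bp, whereas H3K4me1 had 10 peaks, of which 7 overlapped neither H3K4me3 nor H3K27ac. The highest of these (6.29-fold, 2686 bp) had its summit 9048 bp upstream, and a broad one (5.86-fold, 4582 bp) filled part of the gene. Otx2 had 3 peaks, at the start (5.03-fold, summit 8 bp from the TSS), in the intron 2240 bp downstream (5.01-fold) and 8206 bp upstream (3.08-fold). The first pair were of nearly the same height, and all 3 overlapped H3K4me1. The promoter holds 1 TAATCC and 1 CAGCTG, and the intronic summit stretch holds 1 TAATCC.

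Samd11 (ENSMUSG00000096351, chr4:156246966-156255657, minus strand) had the second highest H3K4me3 of the 6 genes (35.0-fold, 1542 bp), a height reached by 12.8% of genes with a promoter peak. Further H3K4me3 peaks lay inside the gene (9.87 and 3.32-fold), and one of 21.5-fold lay at the starts of Plekhn1 and Noc2l downstream. No H3K27ac or Neurod1 peak was found in its window either. H3K4me1 had 6 peaks, 5 of them at the gene's own starts, with the highest at 6.86-fold. Otx2 had 5 peaks. Of these, 2 belonged to Samd11 itself (4.63 and 3.84-fold) and 3 lay at Plekhn1 and Noc2l (4.88, 2.41 and 2.17-fold). The antisense gene Gm47252 starts 837 bp inside Samd11, within 1 kb of both of its own Otx2 peaks. The promoter holds 2 TAATCC and 1 CAGATG.

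Samd7 and Samd11 thus shared their set of targets, although H3K4me3 was higher at Samd11 (35.0-fold against 10.7-fold) and H3K4me1 was spread more widely around Samd7. With windows widened to 50 kb, Samd7 gained 2 H3K27ac peaks. Absence here means that no peak passed the q-value limit of the lists, and weaker enrichment was not detectable from them.

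Esrrb (ENSMUSG00000021255, chr12:86361117-86521628, plus strand) is the longest of the 6 genes, at 160512 bp. It had no H3K4me3, H3K27ac or Neurod1 peak anywhere in a window of 200512 bp. Its 10 H3K4me1 peaks ranged from 2.37 to 4.61-fold, 4.99 per 100 kb, a density that 56.7% of genes reached. The highest lay 2884 bp inside the first intron. The promoter peak (3.59-fold) lay at the internal coding starts, with its summit 60544 bp into the gene, not at the first exon. Otx2 had 2 weak intronic peaks, 70661 and 72397 bp from the first start, of 2.22 and 2.44-fold. Among all Otx2 peaks, 96.5% and 90.9% were at least as high. The weaker peak overlapped no histone peak and holds 2 TAATCC within 150 bp of its summit, while the other lay on H3K4me1 and holds 3 CAGCTG.

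Mef2d (ENSMUSG00000001419, chr3:88142372-88172086, plus strand) had the highest promoter H3K4me3 and Otx2 values of the 6 genes, but not the highest H3K27ac or Neurod1. Its H3K4me3 peak (37.5-fold, 4452 bp) had a height reached by 10.4% of genes with a promoter peak. A continuous H3K4me1 domain of 9408 bp (12.8-fold) began inside it and ran through the first intron, and 6 of the 8 H3K27ac peaks of the window, the highest 4.06-fold, lay under that domain. A further H3K4me3 peak (13.8-fold, 1584 bp) had its summit 3304 bp upstream, where the annotation gives no start of any gene within 1 kb.

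Otx2 and Neurod1 met at nearly every bound site of Mef2d. There were 6 Otx2 peaks, all of which overlapped Neurod1, and 7 Neurod1 peaks, 6 of which overlapped Otx2. In the whole lists, 13.1% of Otx2 peaks and 82.1% of Neurod1 peaks overlapped the other factor, so the Neurod1 count was near its share. At 10.0 per 100 kb, the density of Neurod1 peaks was reached by 0.0912% of all genes. At the promoter, Otx2 was 7.86-fold (reached by 5.88% of all Otx2 peaks) and Neurod1 4.08-fold, with summits 63 bp apart. In the intron, 3005 bp downstream, the order of height was opposite, with Neurod1 at 6.82-fold and Otx2 at 3.91-fold. At the upstream H3K4me3 peak, Neurod1 (5.76-fold) was also above Otx2 (3.65-fold). A site 5500 bp downstream had Neurod1 at 3.68-fold and Otx2 at 3.52-fold, with summits 3 bp apart. The remaining shared sites were a 77 bp overlap of an Otx2 peak (3.33-fold) with a Neurod1 peak (2.27-fold) in the intron and a site at the start of the antisense gene 1700113A16Rik, beyond the 3′ end (Otx2 6.64-fold, Neurod1 3.01-fold). The promoter stretch printed above holds none of the letters marked in capitals, and the intronic stretch holds 2 CAGCTG.

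**Figure D3:**
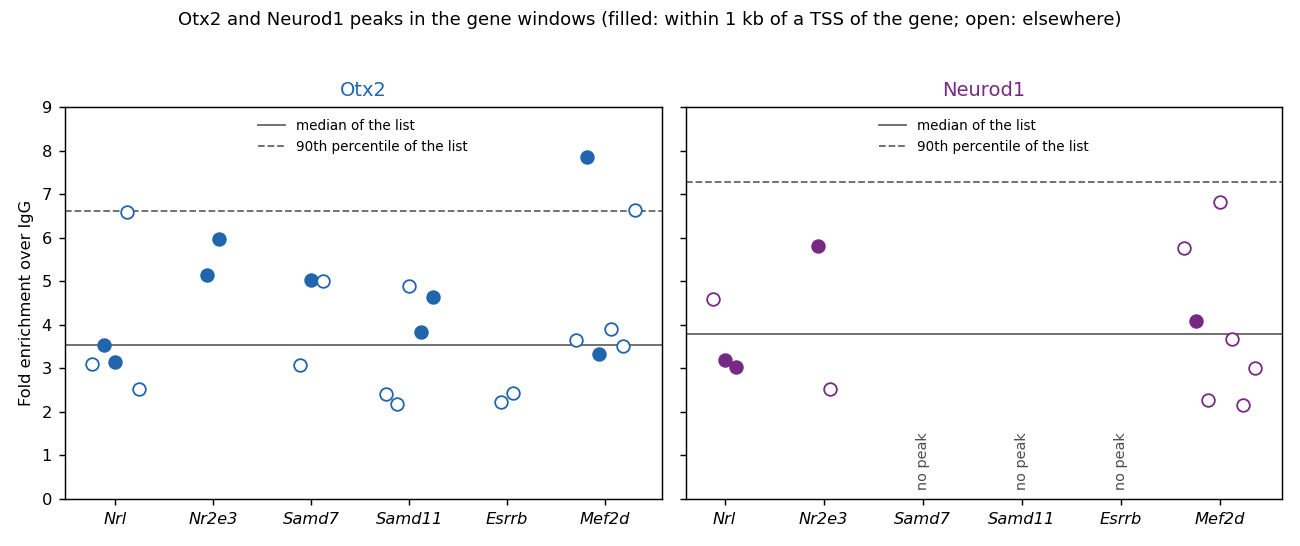
Fold enrichment over IgG of each Otx2 and Neurod1 peak in the 6 gene windows, in genome order within a gene, filled where the peak is within 1 kb of a TSS of that gene. Lines give the median and 90th percentile of the whole list, 3.54 and 6.61-fold for Otx2 and 3.78 and 7.28-fold for Neurod1. Of the 12 Neurod1 peaks, 7 belong to Mef2d and none passes the upper line.

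Over the 6 windows, 17 of the 23 Otx2 peaks overlapped H3K4me3, 1 overlapped H3K27ac without H3K4me3, 3 overlapped H3K4me1 alone and 2 overlapped none. In the whole Otx2 list these shares were 43.3%, 22.6%, 26.9% and 7.20%. For Neurod1 the counts were 9, 2, 1 and 0 of 12, beside 25.6%, 40.1%, 28.7% and 5.54% of its list. Windows drawn around genes hold promoters by construction, and no test was made of these differences. Each factor had 10 peaks that overlapped the other, 10 of 23 for Otx2 (13.1% of its list) and 10 of 12 for Neurod1 (82.1% of its list). Most Neurod1 peaks of the retina thus lay on Otx2 peaks, and the count at the rod fate genes was near that share. All 10 shared sites were at Nrl (3), Nr2e3 (1) and Mef2d (6). Their summits were a median of 57 bp apart, and 9 of the 10 pairs lay within 150 bp.

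Histone peaks away from H3K4me3 were counted in the same way. Among the 8 H3K27ac peaks without H3K4me3, 4 overlapped Neurod1 (3.20% of all such peaks) and 2 overlapped Otx2 (11.0%). At Nr2e3 lay 3 of the 4 with Neurod1, and both of those with Otx2. These 3 met only 2 Neurod1 peaks between them, since 2 of the 3 met the same broad Neurod1 peak, which also overlapped H3K4me3. The 2 with Otx2 likewise met a single broad Otx2 peak (5.15-fold), which overlapped H3K4me3 too. The 31 H3K4me1 peaks without either other mark included 4 with Otx2 and none with Neurod1, beside 6.98% and 1.19% of all such peaks. Of those with Otx2, 2 lay at Samd7, 1 at Esrrb and 1 in the Samd11 window, inside Plekhn1. The Otx2 peaks at the Plekhn1 site (2.41-fold) and the intronic Samd7 site (5.01-fold) also overlapped H3K4me3. Some of the peaks may belong to neighbouring genes, since 7 Otx2 and 2 Neurod1 peaks lay within 1 kb of another gene's TSS.

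No motif lay within 150 bp of most Otx2 or most Neurod1 summits of the 6 genes. Of the 23 Otx2 summits, 6 had TAATCC no more than 150 bp away, beside 18.3% of the whole Otx2 list. CAGATG lay near 4 of the 12 Neurod1 summits (52.3% of all) and CAGCTG near 5 (39.9%). Among the other letters searched on both strands, AGGTCA, found in nuclear receptor sites, was near 5 of the 23 Otx2 summits (17.4%), TGCTGA, found in sites of Maf factors such as Nrl, near 9 (6126 of 29115 in the list), and the Mef2 motif near none (3.68%). Of 32851 RefSeq promoters, 7.06% hold TAATCC. All 6 genes matched that table, and Samd7 and Samd11 were the only ones whose promoters hold it. A match of letters does not show that a factor binds there.

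Genes that act before and after the 6 gave a frame for these values. Of all protein-coding genes, 56.0% had an H3K4me3 promoter peak, 22.6% H3K27ac, 63.6% H3K4me1, 51.0% Otx2 and 5.76% Neurod1. Among 6 upstream photoreceptor factors (Otx2, Crx, Neurod1, Rorb, Prdm1 and Casz1), all had promoter peaks of H3K4me3, H3K27ac, H3K4me1 and Otx2, and 3 had Neurod1. Their median H3K4me3 was 62.7-fold, beside 24.9-fold over the 5 rod fate genes with a peak, and the highest was Casz1 at 129-fold. Crx, the partner of Nrl in rod gene activation, had an Otx2 peak of 14.6-fold, above that of any rod fate gene. Among 13 genes of rod phototransduction and the outer segment, 11 had H3K4me3 with a median of only 5.19-fold, 5 had H3K27ac and 9 had Otx2, with a median of 6.74-fold. At P2, before most outer segments form, the Otx2 median of these genes was thus above and the H3K4me3 median below that of the rod fate genes (5.03 and 24.9-fold). Sag, rod arrestin, had Otx2 at 12.1-fold and Neurod1 at 5.73-fold with H3K4me3 at 6.39-fold.

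The 6 cone-promoting factors all had H3K4me3 (median 10.2-fold) and H3K4me1, 5 had Otx2, 2 had H3K27ac and none had Neurod1. Among all genes with an H3K4me3 promoter peak, H3K4me1 was present at 91.9%, Otx2 at 86.4%, H3K27ac at 37.1% and Neurod1 at 9.46%. The counts for the cone-promoting factors were near these shares and were not tested. Among 12 relatives of the 6 genes in their own families, 11 had H3K4me3, 3 had H3K27ac, 12 had Otx2 and 2, Maf and Mafa, had Neurod1. The relatives of Esrrb, Esrra and Esrrg, both had Otx2 promoter peaks, which Esrrb had not. Among 6 polycomb genes whose products could partner Samd7 and Samd11, all had H3K4me3 (median 32.3-fold) and Otx2, 2 had H3K27ac and 1, Phc2, had Neurod1. Neurod1 was present at 2 of the 13 rod outer segment genes, Sag and Rom1.

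**Figure D4:**
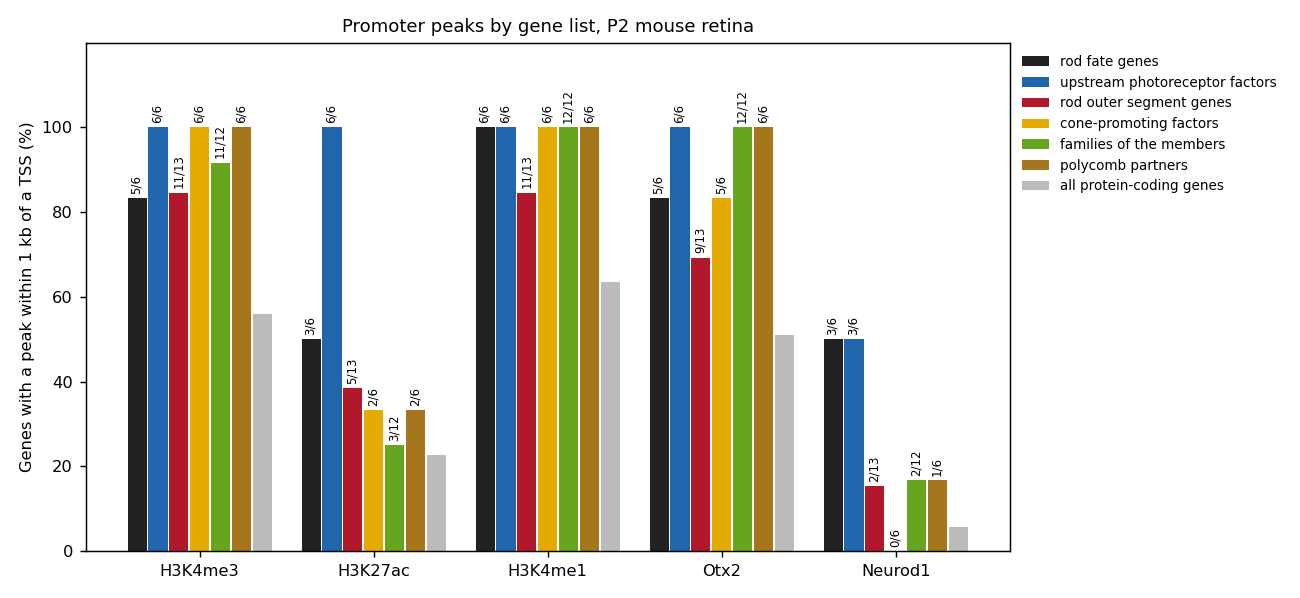
Percent of genes with a peak within 1 kb of a TSS, by target, for the rod fate genes, 5 other gene lists and all protein-coding genes (grey), with the number of genes above each bar. Neurod1 is present at 3 of 6 rod fate genes and at 5.76% of all genes.

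The genes whose promoters were most like each of the 6 were sought among genes with peaks of the same targets, by Euclidean distance in log2 fold enrichment. For Nrl these were Mprip, Tut1 and Ddb1 (distances of 0.35 to 0.53, among 697 genes with all 5 targets). For Nr2e3 they were Shisa4, Klc3 and Slc19a1 (0.44 to 0.65), and for Mef2d they were Ptprs, Incenp and Foxp1 (0.38 to 0.57). For Samd7 and Samd11, among 5285 genes with the same 3 targets, the nearest were Tsen34, Cebpa and Phka1 (0.11 to 0.13) and Dld, Zfp184 and Cpeb3 (0.06 to 0.10). For Esrrb, compared on H3K4me1 alone among 1919 genes, they were Evx2, Iqca and Drd5. No rod fate gene was among the nearest of another. Only genes with the same targets were compared, so that Esrrb could not have met any of the others. Few of the 6 were candidates for the rest, so this says little about how alike their promoters are.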

How the data were processed

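CUT&RUN was performed by the authors on nuclei of P2 mouse retina. Per the study's methods and the submitters' processing notes, reads were trimmed (cutadapt 3.5, Trim Galore 0.6.4), aligned to GRCm38 with Bowtie2, filtered with SAMtools 1.12 and deduplicated with UMI-tools, and peaks were called with macs2 jointly over all libraries of a target against IgG at a q-value of 0.05, outside blacklisted regions. Joint calling leaves 1 value per peak and hides any difference between replicates or between the Otx2 antibodies. The 5 deposited mouse lists give the fold enrichment over IgG, which is a ratio, and the −log10 q-value of each peak. The deposited summit positions were also used. Peak files of 13-lined ground squirrel, and the H3K27me3 and H3K9me3 antibodies named in the protocol, were not analysed here.

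Start sites were those of all transcripts in GENCODE M21, and overlap was at least 1 bp. Where several promoter peaks were present, the highest is given. Percentiles were taken over 21938 protein-coding genes. H3K27ac peaks without H3K4me3 and H3K4me1 peaks without either were counted as separate classes. Intervals were handled with Python 3.11.15 and numpy 2.4.6, and the overlap code, tested on simulated intervals, gave 0 differences from direct counting. Named were the 6 genes, all their promoter, Otx2 and Neurod1 peaks, the highest histone peak per window, genes starting in a window, up to 3 examples per other list and the 3 nearest genes in promoter profile. The genes absent from a list and Crx, Rom1 and Sag beside their other targets were named after their values were seen. The members and lists were chosen with earlier results of these data known. Alternative distances, start sites, thresholds, windows and peak merging were also run.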

Additional observations from a re-analysis of the deposited data

How the results depend on the processing

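Each list pools its libraries, so that no replicate could be left out, and depth cannot be read from it. No paired analysis was possible because the peak lists hold 1 value per peak for all replicates together. Of 124 alternative values for counts and shares, 95 stayed within 1.5 times the reported value and 29 did not. Those 95 include a count that was 0 in every setting, and counts without Esrrb of peaks it does not have. They also include falls from 3 genes to 2. Of 61 alternative values for single promoter peaks, 59 stayed within that range. The exceptions among these single peak values were Otx2 at Nrl, 6.59-fold within 2000 bp of a TSS, and H3K4me1 at Samd7, 3.70-fold at coding starts. A setting under which a promoter peak was no longer called gave no value and is not among the 61. Within 500 bp of a TSS, Nr2e3 lost its H3K4me1 and Neurod1 promoter peaks, and Mef2d lost H3K27ac and H3K4me1. At coding starts alone, Nr2e3 lost its H3K4me1 promoter peak. The count of genes with H3K27ac at the promoter was 1 with the summit required inside the window. Each of these changes follows from which peaks a setting admits.

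With the gene body alone, the windows held 31 H3K4me1 and 15 Otx2 peaks, 5 H3K27ac peaks without H3K4me3, and 15 H3K4me1 peaks without either other mark, 2 of them with Otx2. With 50 kb on either side they held 23 H3K4me3, 80 H3K4me1 and 43 Otx2 peaks, 13 H3K27ac peaks without H3K4me3 (5 with Otx2), and 52 H3K4me1 peaks alone (9 with Otx2). At a −log10 q-value of at least 5 they held 8 H3K27ac and 27 H3K4me1 peaks, 3 H3K27ac peaks without H3K4me3 (2 with Neurod1), and 17 H3K4me1 peaks alone (1 with Otx2). At a fold of at least 2.5, 2 H3K4me1 peaks alone had Otx2. With peaks within 500 bp merged, there were 11 H3K27ac peaks and 3 without H3K4me3 (0 with Otx2, 1 with Neurod1). Without peaks near another gene's TSS, 9 H3K4me3 peaks were left. TAATCC was in 8.70% of Otx2 peaks within 75 bp of the summit (5.15% of the list) and in 43.5% over whole peaks (28.6%). CAGATG was in 16.7% of Neurod1 peaks within 75 bp (17.6%) and in 66.7% over whole peaks (58.2%), above the list there but below it within 150 bp.

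Samd7, Samd11 and Esrrb had no Neurod1 peak under any window or threshold tried. Mef2d had 4 Neurod1 peaks in the gene body alone and 8 with 50 kb. At the higher q-value limit neither Otx2 peak of Esrrb was left.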
